A study of Mus musculus with 12 samples.

Results

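The proteasome genes described here are the 47 genes, of 19057 named genes on the array, whose annotated symbol names a 20S core subunit (Psma, Psmb), a 19S regulatory subunit (Psmc, Psmd), an activator (Psme) or a core assembly chaperone (Psmg). For each gene the probe with the highest mean over the 12 hearts was used, and no measured difference between groups entered that choice of probe. The gene set itself was chosen with earlier results of these data known. The array values came from total RNA of 12 mouse hearts, 1 Illumina bead array per heart, all with the strain label FVB. Adult wildtype hearts gave 2 arrays, and a wildtype heart at embryonic day 14 (E14) gave 1. The 3 MCM hearts are the untreated controls; MCM is a Cre recombinase that tamoxifen activates, and the labels describe the model as heart-specific without naming its promoter. The other 6 hearts came from EpA960/MCM mice, which carry MCM and a transgene that is induced to express RNA with expanded CUG repeats, a model of myotonic dystrophy type 1 (DM1). These mice were 2 to 4 months old, received tamoxifen at 20 mg/kg once or on 5 consecutive days, and were collected 72 h (3 hearts) or 1 week (3 hearts) after induction. Which schedule went with which time, and the age of the control mice, are not given in the sources used here. Because the MCM hearts were untreated and lack the EpA960 label, tamoxifen, transgene and repeat RNA cannot be told apart as sources of a difference. The labels do not say how the animals were related, so p-values measure the spread between these hearts.

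The proteasome degrades proteins that carry ubiquitin chains. Its 20S core is a barrel of alpha subunits, which gate the entry, and beta subunits, of which Psmb5, Psmb6 and Psmb7 carry the constitutive proteolytic sites. Interferon can replace these with Psmb8, Psmb9 and Psmb10, which makes the immunoproteasome. The 19S particle caps the core: its Psmc subunits are ATPases that unfold substrates, and its Psmd subunits hold ubiquitin receptors, a deubiquitinase and structural parts. Psme proteins are other caps that open the core, and Psmg proteins help to build the alpha ring. In heart muscle, the proteasome is known for turning over damaged and contractile proteins.

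Of the 47 genes, 40 had a detection p below 0.01 in all hearts of some group and were tested, among 10104 genes in all; 38 of them were detected on all 12 arrays. The 7 others were Psma1, Psma3, Psma6, Psmb11, Psmd3 and Psmg4, whose probes were detected on 0 arrays, and Psma8, detected on 5 arrays. Psmb11 is known as a thymus subunit and Psma8 as a testis subunit, whereas Psma1, Psma3, Psma6 and Psmd3 are parts of every proteasome, and for these the array gave no usable reading. All levels below are log2 of background-corrected, quantile-normalized signal; levels of different genes come from different probes and were not set against each other. Differences are log2 differences between group means ± SE from 1 limma fit over all 12 arrays, and a gene is called changed where the Benjamini-Hochberg adjusted p over the 10104 genes is below 0.05. Each array detected 14202 to 16774 probes, and arrays of 1 group correlated at 0.961 to 0.994. The 1st percentile of the raw signal was 54.4 to 59.1 on the 6 induced arrays and 63.0 to 76.2 on the 6 others; the comparison of 1 week with 72 h stays within the first set, and the part of this in the comparisons with MCM was not tested.

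One week after induction, transcripts of the 20S and 19S classes were mostly higher than in MCM hearts, while activators and the Psmg assembly chaperones were mostly lower. Classes follow the gene symbol, so the 19S class includes Psmd5 and Psmd10, which are chaperones of base assembly. Of the 40 tested genes, 19 rose, 6 fell and 15 did not pass the test; over all genes tested, 27.3% were called higher and 26.8% lower. The median difference of the 40 genes was 0.29, beside 0.00 over all genes tested. Without the immunoproteasome genes, the 20S and 19S classes accounted for all 19 rises and 1 fall among 30 tested genes, with a median of 0.36. At 72 h, limma called 0 of the 40 genes against MCM, where 0.297% of all genes were called; 2 had an unadjusted p below 0.05, a share that 7.54% of all genes reached.

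**Figure D1:**
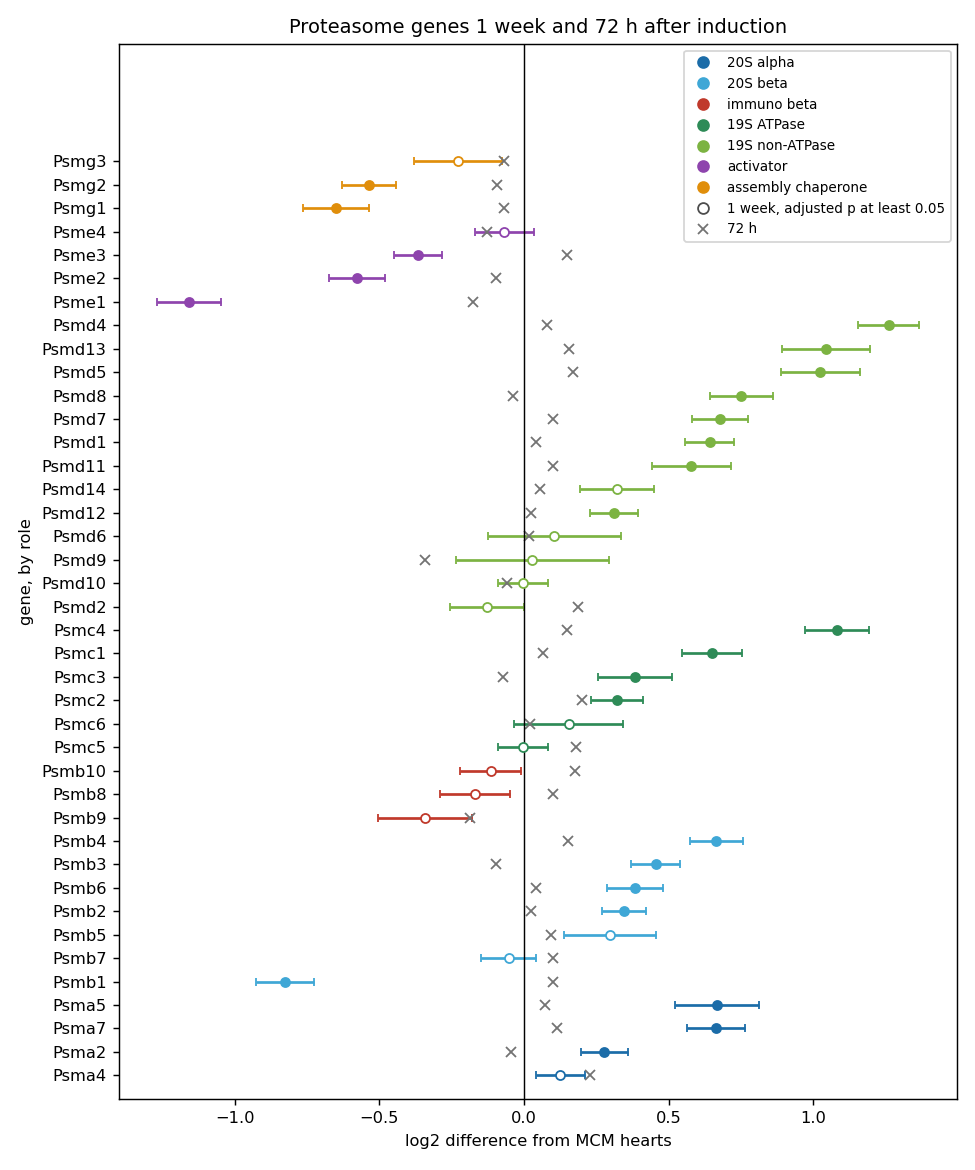
Log2 difference from the MCM hearts for the 40 tested proteasome genes, grouped by role. Circles with bars are the 1-week difference ± SE (filled where the adjusted p is below 0.05, open otherwise) and crosses the 72 h difference. The 19 filled circles to the right of 0 all belong to the 20S or 19S classes.

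Marker genes of several cell types also differed between the groups. Of 12 listed macrophage and leukocyte genes 9 were tested, and all 9 rose at 1 week, with a median difference of 2.18. Of these, Fcer1g was detected on 3 arrays, those at 1 week, so it passed the filter only through the group where it was high. Ptprc and Itgam, which define leukocytes, were detected on 0 arrays. The summed log2 level of the 9 tested genes was 12.76 to 12.88 in MCM hearts, 12.77 to 14.38 at 72 h and 15.13 to 15.36 at 1 week. It was 12.84 to 12.88 in adult wildtype hearts and 11.72 at E14. Of 10 listed cardiomyocyte genes 9 were tested and 6 fell; their summed level was 18.46 to 18.49 in MCM hearts, 18.34 to 18.45 at 72 h, 17.99 to 18.02 at 1 week, 18.36 to 18.37 in adult wildtype hearts and 17.68 at E14. At 1 week against MCM, fibroblast genes rose in 4 of 5 tested, neutrophil genes in 2 of 2 and erythroid genes in 2 of 2. Endothelial genes fell in 3 of 5. These marker counts at 1 week stand beside 27.3% of all genes called higher and 26.8% called lower. The summed erythroid level was 14.50 to 15.21 in MCM hearts, 14.43 to 15.30 at 72 h and 15.78 to 15.86 at 1 week. It was 16.03 to 16.09 in adult wildtype hearts and 15.60 at E14. Against adult wildtype hearts, 0 of the 2 erythroid genes were called at 1 week. At 72 h, when 0 proteasome genes were called, the tested neutrophil genes S100a8 and S100a9 were both lower than in MCM hearts. Their median difference was -1.28. Of the 5 listed neutrophil genes, Mpo and Elane were detected on 0 arrays. In whole hearts, a change in the share of a cell type and a change of RNA per cell cannot be told apart, and the part of these shifts in the proteasome values was not tested.

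The alpha subunits of the core rose in 3 of 4 tested genes, with a median of 0.47, where 27.3% of all genes were called higher. Psma5 gave log2 signals of 13.17, 12.96 and 13.12 in the MCM hearts, 13.03, 13.47 and 12.96 at 72 h, 13.65, 13.83 and 13.77 at 1 week, 13.19 and 12.77 in the adult wildtype hearts and 13.71 at E14. The 1-week hearts lay above every other adult heart, and the E14 heart lay among them. Psma5 was 1.59-fold higher at 1 week than in MCM hearts (0.67 ± 0.14, n = 3 against 3, limma adjusted p = 0.00218). Psma7 rose by a like amount (0.66 ± 0.10, adjusted p = 2.1877e-04 in limma) and Psma2 by less (0.28 ± 0.08, adjusted p = 0.0139 in limma). The log2 signals of Psma4 were 13.20, 13.10 and 13.24 in the MCM hearts, 13.35, 13.49 and 13.37 at 72 h, 13.23, 13.31 and 13.38 at 1 week, 13.39 and 13.27 in the adult wildtype hearts and 13.52 at E14. All 3 of the 72 h hearts lay above the 3 MCM hearts for Psma4, and the 1-week and MCM hearts overlapped; neither difference passed the test (0.23 ± 0.08 at 72 h, unadjusted p = 0.0188; 0.13 ± 0.08 at 1 week, adjusted p = 0.227, both limma).

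Of the 7 tested beta subunits outside the immunoproteasome, 4 rose and 1 fell, with a median of 0.34. Over all genes tested, 27.3% were called higher and 26.8% lower. Psmb4, a structural subunit, was 1.58-fold higher at 1 week (0.66 ± 0.09, limma adjusted p = 1.1252e-04). Psmb3 and Psmb2, also without a proteolytic site, differed by 0.45 ± 0.09 and 0.34 ± 0.08 (limma adjusted p = 8.7632e-04 and 0.00255). Psmb1, another structural beta subunit, went the other way. For Psmb1 the log2 signals were 12.31, 12.53 and 12.38 in the MCM hearts, 12.38, 12.67 and 12.47 at 72 h, 11.52, 11.66 and 11.57 at 1 week, 11.97 and 11.80 in the adult wildtype hearts and 10.46 at E14. The 1-week hearts lay below all other adult hearts and above the E14 heart, and adult wildtype hearts lay between them and the MCM hearts. Psmb1 was 1.77-fold lower at 1 week than in MCM hearts (-0.83 ± 0.10, limma adjusted p = 4.4014e-05), and it has 1 probe, so no other probe bears on its direction.

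**Figure D2:**
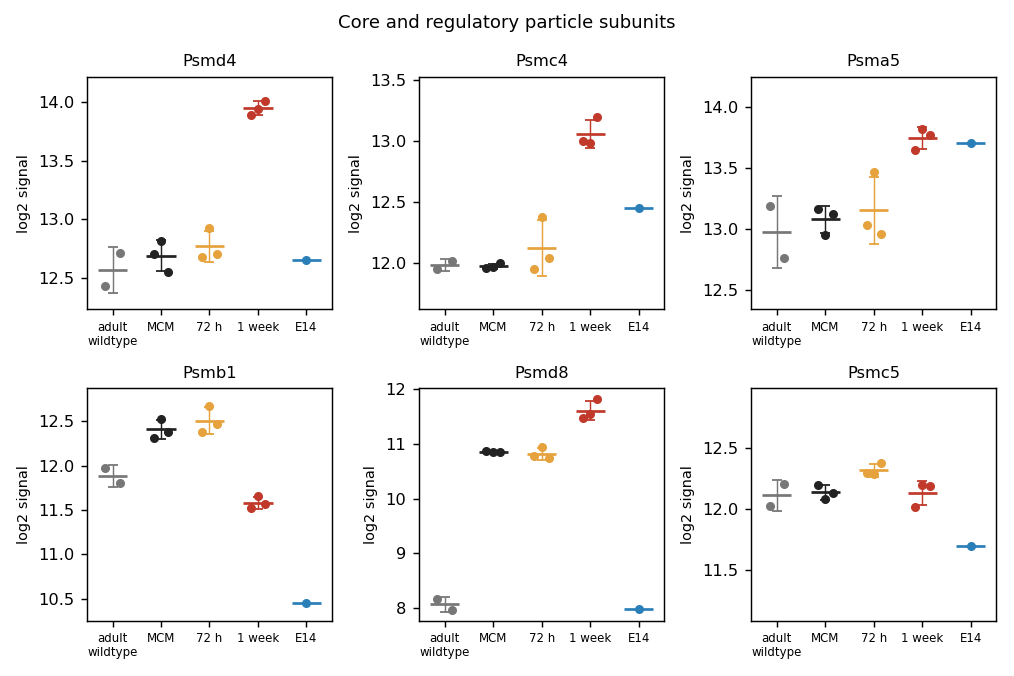
Log2 signal of 6 core and regulatory subunits in each heart. Points are hearts, horizontal lines group means and bars ± SD; Psmd4 and Psmc4 stand highest at 1 week, Psmb1 is lower at 1 week and at E14, and Psmd8 is low in the 3 wildtype hearts.

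The 19S particle held the steepest rises. Of its 6 ATPase subunits 4 rose, with a median of 0.35. Of 13 tested non-ATPase (Psmd) genes 8 rose, with a median of 0.58, and none of these 19 genes fell. Over all genes tested, 27.3% were called higher and 26.8% lower. Psmd4, a ubiquitin receptor of the particle, gave log2 signals of 12.70, 12.81 and 12.55 in the MCM hearts, 12.68, 12.92 and 12.71 at 72 h, 13.90, 13.94 and 14.02 at 1 week, 12.43 and 12.71 in the adult wildtype hearts and 12.65 at E14. All 3 of the 1-week hearts stood above the 9 others, with no overlap. The gene was 2.40-fold higher at 1 week than in MCM hearts (1.26 ± 0.11, n = 3 against 3, limma adjusted p = 4.5827e-06). Psmc4, an ATPase of the base, read 11.96, 11.97 and 12.001 in the MCM hearts, 11.96, 12.38 and 12.04 at 72 h, 12.998, 12.99 and 13.20 at 1 week, 11.95 and 12.02 in the adult wildtype hearts and 12.46 at E14. Again the 1-week hearts stood above all others, and the next highest were the E14 heart and 72 h replicate 2. Psmc4 was 2.12-fold higher at 1 week (1.08 ± 0.11, limma adjusted p = 1.6039e-05).

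Psmd13, a lid subunit, was 2.06-fold higher, and Psmd5, a chaperone that helps to assemble the base, was 2.03-fold higher (limma adjusted p = 1.6312e-04 and 9.6719e-05). Psmd7, Psmd1, Psmc1 and Psmd11, structural or ATPase subunits of the particle, rose by 0.58 to 0.68. The other rises were Psmc3 at 0.38, Psmc2 at 0.32 and Psmd12 at 0.31. Psmd14, the deubiquitinase of the lid, differed by 0.32 ± 0.13 (limma adjusted p = 0.0511), while its other probe, also detected on all 12 arrays, was called higher (0.85, limma adjusted p = 1.874e-04 over all detected probes). Psmc5, another base ATPase, stood at 12.20, 12.08 and 12.14 in the MCM hearts, 12.29, 12.29 and 12.38 at 72 h, 12.02, 12.20 and 12.19 at 1 week, 12.03 and 12.21 in the adult wildtype hearts and 11.70 at E14. Its 1-week and MCM hearts overlapped and the difference was -0.00 ± 0.09 (limma adjusted p = 0.976), but its other probe, detected on all 12 arrays, was called higher (0.38, limma adjusted p = 0.00375 over all detected probes), so the probes of Psmc5 disagree. Psmd10, a base assembly chaperone, stood at 10.32, 10.15 and 10.23 in the MCM hearts, 10.20, 10.21 and 10.12 at 72 h, 10.22, 10.28 and 10.20 at 1 week, 10.21 and 10.14 in the adult wildtype hearts and 10.66 at E14. The adult hearts overlapped throughout and the E14 heart was above them; the 1-week difference was -0.00 ± 0.09 (limma adjusted p = 0.972). Psmd2, which docks ubiquitin shuttles, differed by -0.13 ± 0.13, and Psmc6, Psmd6 and Psmd9 by 0.15, 0.10 and 0.03; none of these 4 passed the test. The probes of Psmd9 also disagree: its other one, detected on 5 arrays, was called higher (1.08, limma adjusted p = 0.00404 over all detected probes).

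The pattern of Psmd8, a lid subunit named after its values were seen, was unlike the rest: it gave log2 signals of 10.87, 10.86 and 10.86 in the MCM hearts, 10.77, 10.95 and 10.75 at 72 h, 11.48, 11.55 and 11.82 at 1 week, 8.17 and 7.97 in the adult wildtype hearts and 7.99 at E14. The 3 wildtype hearts, adult and embryonic, lay far below the 9 hearts of transgenic mice, and the 1-week hearts lay above the 72 h and MCM hearts. Adult wildtype hearts were 6.93-fold below MCM hearts (-2.79 ± 0.12, n = 2 against 3, limma adjusted p = 9.1458e-08), and 1-week hearts 1.68-fold above MCM hearts (0.75 ± 0.11, limma adjusted p = 1.6108e-04). The other probe for Psmd8 was detected on 0 arrays. Psmb1 was also lower in adult wildtype than in MCM hearts (-0.52 ± 0.11, limma adjusted p = 0.0169), and these were the 2 proteasome genes called in that comparison, where 5.82% of all genes were called. Leaving out either adult wildtype heart, or MCM replicate 2, left 1 of these 2 calls.

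The catalytic subunits with constitutive sites were compared with their interferon-inducible counterparts. Psmb6, the constitutive partner of Psmb9, was the member of the 6 called higher by its brightest probe. Its values, as log2 signal, were 13.22, 13.13 and 12.93 in the MCM hearts, 13.23, 13.07 and 13.11 at 72 h, 13.37, 13.46 and 13.60 at 1 week, 13.09 and 13.11 in the adult wildtype hearts and 13.24 at E14. All 1-week hearts lay above the 9 others; the gene was 1.30-fold higher than in MCM hearts (0.38 ± 0.10, limma adjusted p = 0.00558), and its other detected probe differed by 0.51. Psmb5 gave log2 signals of 9.95, 9.98 and 9.51 in the MCM hearts, 10.22, 9.68 and 9.81 at 72 h, 10.04, 10.25 and 10.04 at 1 week, 9.54 and 9.65 in the adult wildtype hearts and 9.36 at E14. For Psmb5, the partner of Psmb8 and the main target of proteasome inhibitors, the 1-week hearts lay above the MCM hearts but not above the 72 h hearts, and the difference did not pass (0.30 ± 0.16, limma adjusted p = 0.137). Psmb7, the partner of Psmb10, read 13.44, 13.34 and 13.53 in the MCM hearts, 13.62, 13.51 and 13.48 at 72 h, 13.25, 13.37 and 13.52 at 1 week, 13.33 and 13.23 in the adult wildtype hearts and 13.01 at E14. Here the 1-week and MCM hearts overlapped (-0.05 ± 0.09, limma adjusted p = 0.653), while the 3 other detected probes of Psmb7 differed by 0.14, 0.33 and 0.38. Of these, the probes at 0.33 and 0.38 were called higher (limma adjusted p = 0.0109 and 0.00814 over all detected probes), so the probes of Psmb7 disagree.

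Of the immunoproteasome subunits, limma called 0 of 3 at 1 week, 0 had an unadjusted p below 0.05, and the median difference was -0.17. Over all genes tested, 54.2% were called in either direction and 59.2% had an unadjusted p below 0.05. Psmb8 gave log2 signals of 10.20, 10.35 and 10.13 in the MCM hearts, 10.24, 10.54 and 10.20 at 72 h, 10.08, 10.19 and 9.90 at 1 week, 10.14 and 10.04 in the adult wildtype hearts and 8.48 at E14. The 1-week and MCM hearts overlapped (-0.17 ± 0.12, limma adjusted p = 0.255). Psmb9 read 8.81, 8.78 and 8.55 in the MCM hearts, 8.39, 8.83 and 8.36 at 72 h, 8.48, 8.46 and 8.17 at 1 week, 9.26 and 9.01 in the adult wildtype hearts and 8.03 at E14. The 1-week hearts lay below the MCM hearts and overlapped the 72 h hearts, and the adult wildtype hearts were highest (1 week against MCM -0.34 ± 0.16, limma adjusted p = 0.0945, or 0.0425 without 72 h replicate 2, which enters through the shared spread). The values of Psmb10 were 11.09, 11.09 and 11.004 in the MCM hearts, 11.12, 11.28 and 11.30 at 72 h, 11.17, 10.82 and 10.84 at 1 week, 11.29 and 11.16 in the adult wildtype hearts and 10.47 at E14. The 1-week hearts overlapped the MCM hearts (-0.12 ± 0.11, limma adjusted p = 0.381) and Psmb10 was lower than at 72 h (-0.29 ± 0.11, limma adjusted p = 0.0409). A second probe of Psmb10, detected on all 12 arrays, gave -0.27 at 1 week against MCM with an adjusted p of 0.0252 over all detected probes in limma. From 72 h it differed by only -0.09. Its 72 h difference from MCM was -0.19, beside 0.17 for the brightest probe, so the probes of Psmb10 disagree at 72 h. The second probe of Psmb8, detected on 6 arrays, gave 0.43 at 1 week against MCM.

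**Figure D3:**
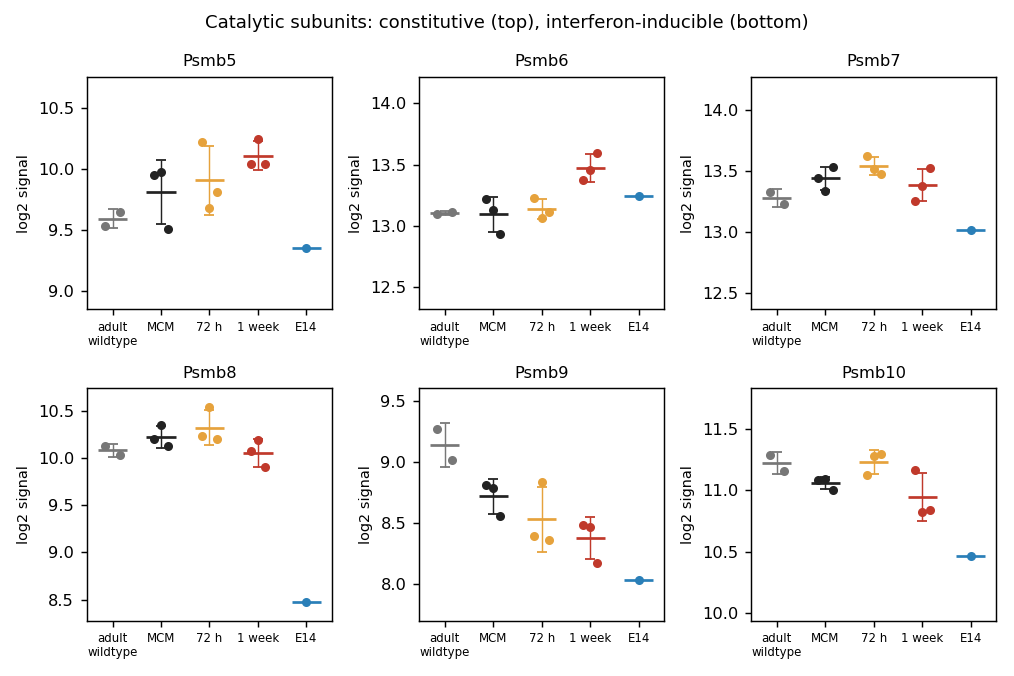
Log2 signal of the constitutive catalytic subunits (top) and their interferon-inducible counterparts (bottom) in each heart. Points are hearts, lines group means and bars ± SD; Psmb6 is highest at 1 week, and Psmb8, Psmb9 and Psmb10 are lowest at E14.

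Of the 8 tested genes of peptide loading and class I presentation, the pathway that immunoproteasome products feed, 2 rose and 2 fell at 1 week, shares close to the 27.3% and 26.8% of all genes. H2-K1, a class I heavy chain, rose by 1.35 and H2-D1, another, by 0.65. Irf1, a transcription factor that interferon induces and that drives the immunoproteasome genes, fell by 0.47, and Tapbp, which loads peptides onto class I molecules, fell by 0.42.

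The activators were lower at 1 week in 3 of 4 genes, with a median of -0.47, where 26.8% of all genes were called lower. Psme1 gave log2 signals of 12.81, 12.84 and 12.83 in the MCM hearts, 12.74, 12.43 and 12.79 at 72 h, 11.66, 11.84 and 11.51 at 1 week, 12.78 and 12.83 in the adult wildtype hearts and 12.51 at E14. The 1-week hearts lay below all 9 others. Psme1, which with Psme2 forms the interferon-inducible PA28 cap, was 2.23-fold lower than in MCM hearts (-1.16 ± 0.11, n = 3 against 3, limma adjusted p = 1.0157e-05), and its other detected probe differed by -1.12. Psme2 read 10.03, 9.93 and 9.88 in the MCM hearts, 9.88, 9.80 and 9.86 at 72 h, 9.37, 9.32 and 9.42 at 1 week, 9.88 and 9.68 in the adult wildtype hearts and 9.82 at E14. The groups separated in the same way, and the gene was 1.49-fold lower (-0.58 ± 0.10, limma adjusted p = 4.0938e-04). Psme3, the nuclear PA28 cap, read 10.98, 11.08 and 11.03 in the MCM hearts, 11.11, 11.21 and 11.23 at 72 h, 10.57, 10.70 and 10.72 at 1 week, 11.23 and 11.13 in the adult wildtype hearts and 11.51 at E14. The 1-week hearts were lowest and the E14 heart highest; the gene was 1.29-fold lower than in MCM hearts (-0.37 ± 0.08, limma adjusted p = 0.00279). Psme4, the PA200 cap, read 13.40, 13.39 and 13.65 in the MCM hearts, 13.39, 13.20 and 13.47 at 72 h, 13.30, 13.45 and 13.48 at 1 week, 13.43 and 13.43 in the adult wildtype hearts and 12.04 at E14. Its adult hearts overlapped (-0.07 ± 0.10, limma adjusted p = 0.598), but a dimmer probe detected on all 12 arrays differed by -1.33 (limma adjusted p = 4.034e-04 over all detected probes), so the probes of Psme4 disagree.

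The chaperones that build the alpha ring fell in 2 of 3 tested genes, beside 26.8% of all genes. Psmg1 gave log2 signals of 9.99, 10.13 and 9.78 in the MCM hearts, 9.96, 9.82 and 9.90 at 72 h, 9.28, 9.34 and 9.32 at 1 week, 9.69 and 9.95 in the adult wildtype hearts and 10.05 at E14. The 1-week hearts lay below the 9 others and Psmg1 was 1.57-fold lower than in MCM hearts (-0.65 ± 0.11, limma adjusted p = 5.5828e-04). Psmg2, its partner in the same dimer, was 1.45-fold lower (-0.54 ± 0.09, limma adjusted p = 5.7956e-04). Psmg3 read 8.86, 8.62 and 8.72 in the MCM hearts, 8.42, 8.92 and 8.65 at 72 h, 8.59, 8.55 and 8.38 at 1 week, 8.52 and 8.25 in the adult wildtype hearts and 8.85 at E14. The 1-week hearts lay below the 3 MCM hearts and overlapped the 72 h hearts, and the difference from MCM did not pass (-0.23 ± 0.15, limma adjusted p = 0.226). Pomp, which matures the beta ring, differed by 0.14 (limma adjusted p = 0.293).

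**Figure D4:**
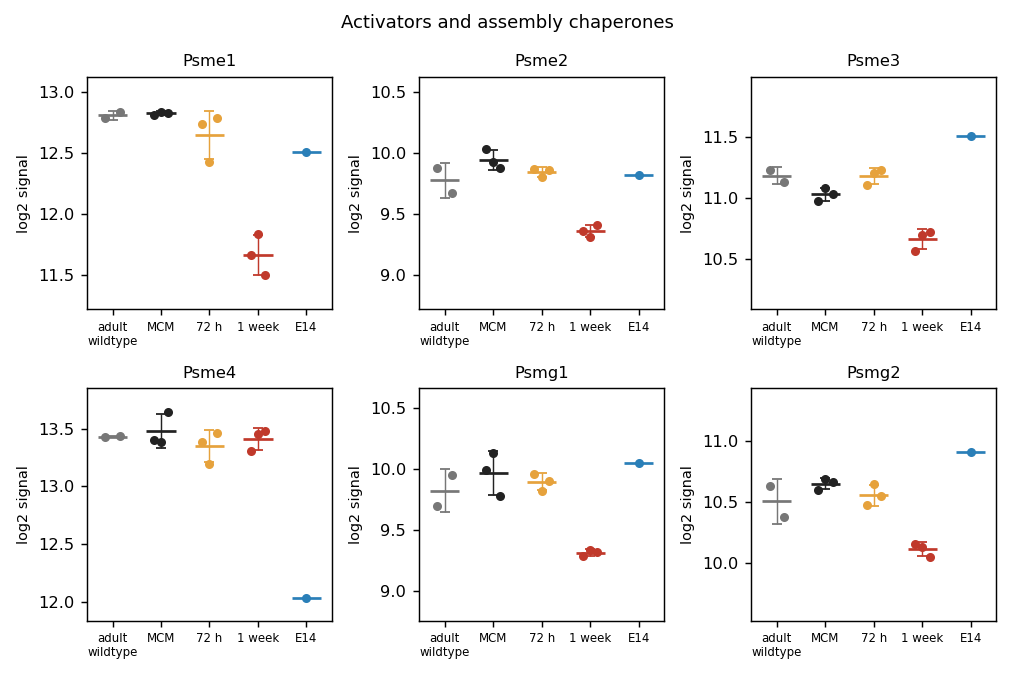
Log2 signal of the 4 activators and of Psmg1 and Psmg2 in each heart. Points are hearts, lines group means and bars ± SD; Psme1, Psme2, Psme3, Psmg1 and Psmg2 are lowest in the 3 hearts at 1 week, and Psme4 is lowest at E14.

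Separation of the hearts gave a similar count. For 18 proteasome genes every 1-week heart lay above all 8 other adult hearts, which held for 20.3% of all genes tested, and for 6 genes every 1-week heart lay below them, which held for 20.1%. Those 18 are the risen genes other than Psmc2, whose 72 h replicate 2 overlapped. With the 2 adult wildtype hearts as controls, 21 genes were higher and 7 lower at 1 week, beside 24.5% and 24.5% of all genes. Of the 25 calls against MCM 24 were made again; Psmc3 was lost (limma adjusted p = 0.0874), and Psmb5, Psmd9, Psmd14 (higher) and Psmb9 (lower) were added. Of 11 further detected probes for risen genes 10 differed by more than 0 and 8 were called higher; the exception was a probe of Psmd7 at -0.30. All 3 further probes of fallen genes were below 0 and 2 were called. Of 12 further probes of the 15 uncalled genes, 5 were called higher and 2 lower.

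**Figure D5:**
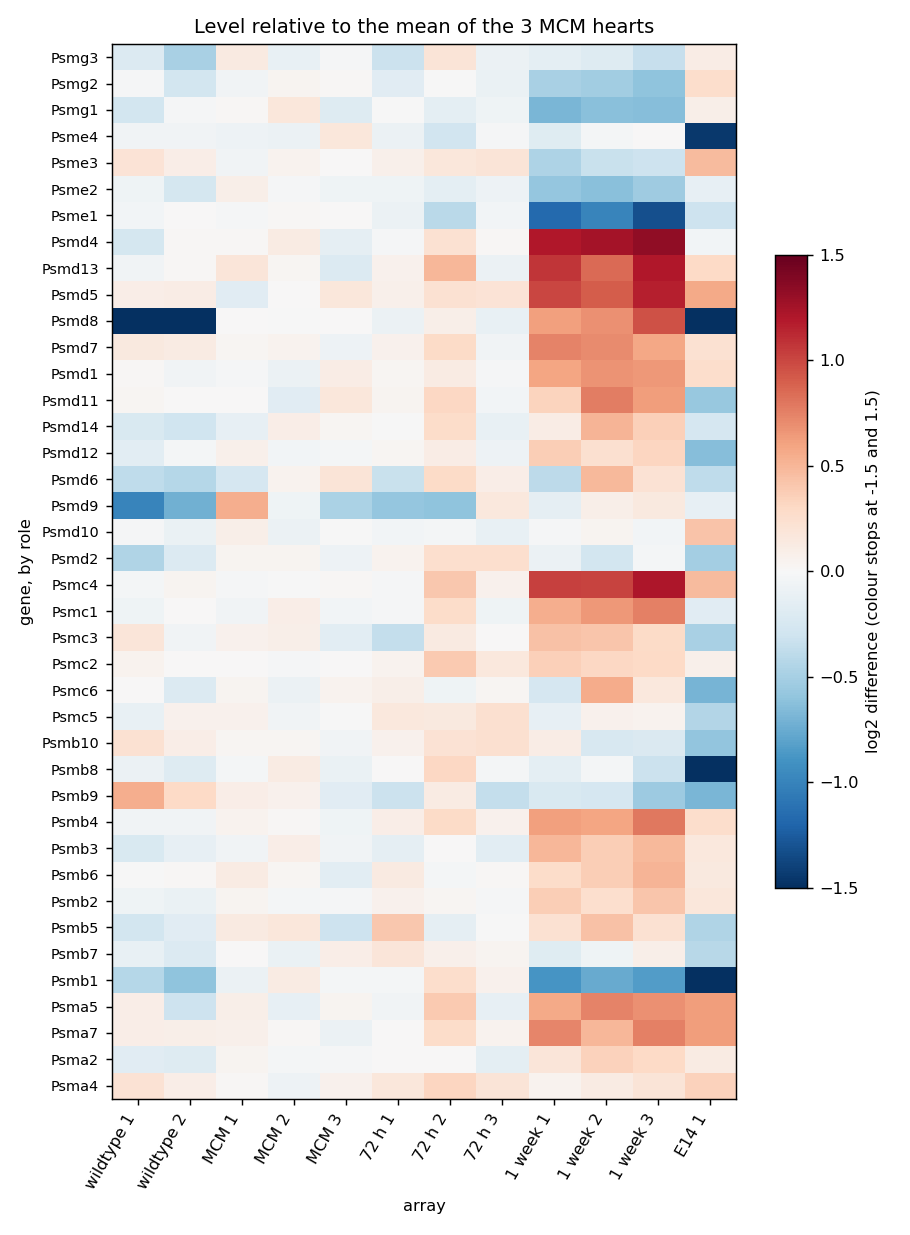
Each tested gene on each array relative to the mean of the 3 MCM hearts, as a log2 difference (red higher, blue lower, colour stopping at -1.5 and 1.5). The 3 columns at 1 week are red for most 20S and 19S genes and blue for Psmb1, the Psme genes other than Psme4 and the Psmg genes.

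Between the induced times, 18 genes were higher and 7 lower at 1 week than at 72 h, beside 23.2% and 22.4% of all genes. The mean log2 level over the 20S and 19S genes without the immunoproteasome was 11.26 and 11.25 in the adult wildtype hearts and 11.28 at E14. This mean includes Psmd8, and the median difference of adult wildtype from MCM hearts over these genes was -0.07. The same mean was 11.42 to 11.49 in MCM hearts, 11.46, 11.62 and 11.47 at 72 h, and 11.79 to 11.92 at 1 week. Replicate 2 was thus the highest of the 72 h hearts, and it also held the highest summed leukocyte level at that time, 14.38. Any link between these levels was not tested and would rest on 1 heart. The median difference of the 40 genes at 72 h from MCM was 0.06, and -0.01 without that heart.

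Embryonic and adult wildtype hearts differed in 16 proteasome genes, 7 higher and 9 lower at E14, beside 30.0% and 27.2% of all genes; the single E14 heart was assumed to vary like the other groups. All 3 immunoproteasome subunits were lower at E14: Psmb8 3.05-fold, Psmb9 2.15-fold and Psmb10 1.69-fold (limma adjusted p = 1.3691e-05, 0.00213 and 0.00148). Psmb1 and Psme4 were 2.70-fold and 2.63-fold lower, and Psmd11, Psmc3, Psmd12 and Psmc5 were lower by 0.42 to 0.58 on the log2 scale. The other Psmc5 probe, detected on all 12 arrays, differed by 0.10 at E14, so the probes of Psmc5 disagree here too. The higher genes were Psma5 (0.73), Psma7 (0.54, and 0.18 on its other detected probe), Psmd10 (0.49), Psmc4 (0.47), Psmg2 (0.40), Psmb3 (0.34) and Psme3 (0.33). Without adult wildtype replicate 2 the count was 9. All 8 tested genes of peptide loading and class I presentation also differed at E14, 6 lower and 2 higher.

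RefSeq promoter windows (GRCm38.p6, 250 bases before to 50 after the start) were held for 39 of the 47 genes. They were searched on both strands for TGACNNNGC, the core of the element that Nfe2l1 and Nfe2l2 bind, for CCAAT, the box of NF-Y, and for a form of the interferon-stimulated response element (ISRE), GAAA repeated after any 2 bases (GAAA, NN, GAAA); each was counted by itself, whether or not it overlapped another. TGACNNNGC was in 6 of 39 windows (15.4%) against 14.0% of 27025 genes, CCAAT in 14 (35.9%) against 41.1%, and the ISRE form in 5 (12.8%) against 3.99%. Of the 16 risen genes with a window 2 held TGACNNNGC, 6 CCAAT and 2 the ISRE form; of 4 fallen genes 0, 1 and 1 did. The 250 bases before the start are shown for Psmd4, the gene with the steepest rise, for Psmb6 and Psmd12, the risen genes with TGACNNNGC, and for Psme1, the gene with the steepest fall. Capitals mark matches: CCAAT and the ISRE form on the other strand in Psmd4 (chr3:95042615-95042864, minus strand), and TGACNNNGC in Psmb6 (chr11:70525107-70525356, plus strand) and, on the other strand, in Psmd12 (chr11:107479278-107479527, plus strand). Psme1 (chr14:55578244-55578493, plus strand) has no match before its start.
Psmd4: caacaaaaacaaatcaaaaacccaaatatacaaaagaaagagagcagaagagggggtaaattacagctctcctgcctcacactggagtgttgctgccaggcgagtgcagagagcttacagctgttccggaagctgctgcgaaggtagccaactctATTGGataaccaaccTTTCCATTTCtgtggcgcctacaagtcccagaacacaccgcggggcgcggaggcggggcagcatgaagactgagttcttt
Psmb6: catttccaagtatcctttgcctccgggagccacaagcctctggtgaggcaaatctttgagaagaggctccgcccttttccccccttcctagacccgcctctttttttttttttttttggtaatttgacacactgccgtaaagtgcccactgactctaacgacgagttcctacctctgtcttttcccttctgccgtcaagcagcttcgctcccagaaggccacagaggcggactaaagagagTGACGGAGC
Psmd12: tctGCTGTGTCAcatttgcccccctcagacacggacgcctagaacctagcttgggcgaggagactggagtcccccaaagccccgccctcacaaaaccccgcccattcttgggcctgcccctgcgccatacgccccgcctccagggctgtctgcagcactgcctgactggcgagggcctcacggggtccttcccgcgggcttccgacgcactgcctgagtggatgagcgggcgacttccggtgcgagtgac
Psme1: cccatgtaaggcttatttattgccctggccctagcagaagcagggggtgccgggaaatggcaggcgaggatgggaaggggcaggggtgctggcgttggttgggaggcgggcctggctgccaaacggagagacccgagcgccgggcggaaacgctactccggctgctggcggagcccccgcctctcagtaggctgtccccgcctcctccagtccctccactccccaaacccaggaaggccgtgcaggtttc

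Other genes of the ubiquitin and proteasome pathway are given beside the 27.3% of all genes called higher and the 26.8% called lower at 1 week. Of 10 tested regulators of proteasome transcription 2 rose and 2 fell. The 2 risen genes, Maff and Mafk, were detected on 3 arrays each, those at 1 week, and passed the filter only through that group. Nfe2l3 and Nfya were detected on 1 array each, the E14 heart. The count of rises is therefore not set against the share over all genes. Nfe2l1, the factor known to restore proteasome transcription when activity is low, read 13.07, 12.97 and 13.13 in MCM hearts and 13.14, 12.94 and 13.07 at 1 week and differed by -0.01 (limma adjusted p = 0.938). Nfe2l2, its relative in the oxidative stress response, fell by 0.55 (limma adjusted p = 0.00114) and Nfyc, an NF-Y subunit, fell by 0.32. Their small Maf partners Maff and Mafk were at least 1.68-fold and at least 1.26-fold higher, as bounds set by the dimmest detected signals. Of 9 assembly and associated factors Zfand2a, a stress-induced proteasome binder, rose 2.55-fold. Sqstm1, a ubiquitin receptor of autophagy, rose 2.33-fold and Nploc4, a cofactor of the VCP segregase, 2.04-fold, among 4 higher and 3 lower of 12 tested shuttles and segregase genes; Ubqln4 and Faf2 fell by 0.59 and 0.43.

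Of 10 tested muscle ubiquitin ligases 6 fell and 2 rose at 1 week, beside 26.8% and 27.3% of all genes. Fbxl22 and Trim63 (MuRF1, which marks contractile proteins) fell by 1.29 and 1.05, and Mdm2, the ligase of p53, and Trim54 rose by 0.71 and 0.26. Of 4 tested genes of ubiquitin-like modifiers and their activating enzymes, Uba6 rose by 0.60 and Uba3 fell by 0.39. Among 14 tested autophagy and lysosome genes 6 rose and 2 fell, beside the same shares of all genes. Gabarapl2, of the autophagosome membrane, was at least 2.70-fold higher and Ctsl, a lysosomal protease, at least 2.25-fold higher, whereas Atg5 and Map1lc3a fell by 0.67 and 0.51. Gabarapl2 was detected on 3 arrays, those at 1 week, so it passed the filter only through that group. At 72 h limma called 0 genes on each of these 7 lists, beside 0.297% of all genes, with 0 to 2 per list at an unadjusted p below 0.05.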

How the data were processed

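Total RNA of 12 mouse hearts was measured on Illumina bead arrays. Per the file headers, each deposited array file gave a mean bead signal per probe, an intensity on a linear scale, and a detection score between 0 and 1. The authors also deposited a value table of 1 normalized intensity per probe and array, whose probes carry names; 45281 probes were linked to it one to one. In that table, the authors' values are linear and not on a log2 scale. The background correction, scanner software and array batches are not given in the sources used here.

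Background was corrected with nec in limma 3.58.1 (R 4.3.3), with 1 minus the deposited detection score as detection p and an offset of 16, followed by quantile normalization and log2. Each gene was represented by the probe with the highest mean over the 12 columns of the value table. The 10104 genes with a detection p below 0.01 in all hearts of some group were fitted with 5 group means. The fit used lmFit and eBayes with an intensity trend and had 7 residual degrees of freedom. Benjamini-Hochberg adjustment ran over all of these genes. Fit and adjustment were tested on simulated log2 values for 1 week against MCM. Background correction, normalization, the detection filter and the probe choice were not part of that simulation. Precision is limited by how many arrays there are. A fold against a group that is not detected is a bound against the dimmest detected signal.

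The proteasome genes, role classes, pathway and marker lists, motifs and the rule for named genes were chosen with earlier results of these data known. Every proteasome gene could be named by role. Values of every heart were given for the immunoproteasome subunits, Psmb5, Psmb6, Psmb7, the activators, and the largest and smallest change of each other class; Psmd8 was added. Of each pathway list the 2 largest called changes per direction were named, and Nfe2l1, Nfe2l2 and Pomp. The reported fit did not use replicate numbers as pairs. Of 15 same-numbered pairs between groups 3 had deviations correlated above 0.1 (range -0.0403 to 0.307). Among 30 differently numbered pairs 1 did (range -0.280 to 0.203). Whether same-numbered hearts share a batch was not tested. Alternatives covered background, scaling, filter, probe choice, weights, controls and leaving out each replicate.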

Additional observations from a re-analysis of the deposited data

Results flagged for a closer look

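The difference from MCM changed between 72 h and 1 week in 25 of 40 tested proteasome genes, by the limma contrast of the induced groups (adjusted p below 0.05). The same contrast called 45.6% of all genes tested. Both differences share the MCM hearts, so this contrast equals 1 week against 72 h. In the 20S core the change was 0.32 for Psma2, 0.59 for Psma5, 0.55 for Psma7, 0.32 for Psmb2, 0.55 for Psmb3, 0.51 for Psmb4, 0.34 for Psmb6 and -0.93 for Psmb1, on the log2 scale. Among 19S ATPases it was 0.58 for Psmc1, 0.46 for Psmc3 and 0.93 for Psmc4. Among 19S non-ATPases it was 0.60 for Psmd1, 1.18 for Psmd4, 0.86 for Psmd5, 0.58 for Psmd7, 0.79 for Psmd8, 0.48 for Psmd11, 0.29 for Psmd12 and 0.89 for Psmd13. For Psmb10, the immunoproteasome subunit that passed, it was -0.29, but -0.09 on its other probe, which was detected on all 12 arrays. For the activators Psme1, Psme2 and Psme3 it was -0.98, -0.48 and -0.52, and for the assembly chaperones Psmg1 and Psmg2 it was -0.58 and -0.44. The leukocyte markers also differed between these times, with 8 of 9 tested genes higher at 1 week, beside 23.2% of all genes. The part of these markers in the proteasome values was not tested.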

How the results depend on the processing

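Of 111 alternative counts of called proteasome genes, 102 lay within 1.5 times the reported count. Array weights gave 2 calls at 72 h (0 higher, 2 lower), 4 for adult wildtype against MCM and 27 for E14 against adult wildtype. Adult wildtype hearts in place of MCM gave 2 calls at 72 h, and fitting only the 2 groups compared gave 26 for E14. Leaving out each heart in turn gave 23 to 27 calls at 1 week against MCM, 23 to 26 against 72 h, 0 to 0 at 72 h, 1 to 2 for adult wildtype against MCM, and 9 to 21 for E14. Of 460 alternative values for the 20 genes given by heart, 437 kept their direction and side of the threshold. With the mean of detected probes the 1-week difference was 0.20 for Psmb7 (limma adjusted p = 0.0473), 0.13 for Psmb8, 0.19 for Psmc5 and 0.0669 for Psmd10. With the adult wildtype control it was -0.0281 for Psma4, 0.10 for Psmb7, 0.0190 for Psmc5, 0.0571 for Psmd10 and 0.12 for Psmg3, and with median scaling 0.00052 for Psmd10. Leaving out each heart gave ranges of -0.12 to 0.0104 for Psmb7, -0.0348 to 0.0547 for Psmc5, -0.0462 to 0.0406 for Psmd10 and -0.11 to 0.0168 for Psme4. None of these signs was called in the reported fit, and the cause was not tested. Psmb5 (0.52) and Psmb9 (-0.76) passed the test with the adult wildtype control, Psme4 (-0.70) with the mean of probes, and Psmb9 (-0.40) and Psmg3 (-0.30) with array weights. Median scaling moved the median of all genes for E14 from 0.05 to 0.25, with 5 proteasome genes higher and 9 lower.

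The reported fit did not pair the hearts by replicate number. With the number as a replicate block, 26 proteasome genes were called at 1 week against MCM, 0 at 72 h, 24 at 1 week against 72 h and 2 for adult wildtype against MCM; with 1 heart at E14, no block could be fitted there. A slide or scan block was not run, since the files carry neither. The 7 genes below the detection filter bear on no statement of change.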
